A study of Mus musculus with 5 samples.

Results

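A set of 8 secreted factors that stromal cells can use to instruct blood vessels was examined in bone marrow stromal cells of 2 developmental origins. The set was listed by name, with earlier results of these data known. The 8 genes, *Vegfa*, *Vegfb*, *Vegfc*, *Pgf*, *Angpt2*, *Angptl4*, *Adm* and *Esm1*, were found among the 30046 features of the counts table by matching Ensembl identifiers to mouse symbols, and all 8 passed the filter that left 10093 genes for testing. Transcripts were measured by bulk RNA-seq in femoral cells of mice at postnatal day 21 that were sorted as Cxcl12-GFP-high and tdTomato+, after a tamoxifen pulse at embryonic day 12.5. In 3 libraries the cells came from mice carrying Cxcl12(GFP/+), Dlx5(CreER/+) and R26R(tdTomato/+), in which creER from the *Dlx5* locus marks cells of the fetal perichondrium and their descendants (Dlx5CE-E12.5 cells). In the other 2 libraries the mice carried Cxcl12(GFP/+), Fgfr3-iCreER and R26R(tdTomato/+), in which a transgene marks fetal chondrocytes and their descendants (Fgfr3CE-E12.5 cells). Both groups thus have 1 *Cxcl12* allele replaced by GFP and received tamoxifen, and only the Dlx5CE-E12.5 group has creER inserted at 1 *Dlx5* allele. Cells of littermates were pooled by genotype before sorting. The Fgfr3CE-E12.5 libraries are numbered 2 and 3, as in the labels.

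Vessels in bone are built and kept by signals between stromal cells and endothelial cells. VEGF-A, acting on the receptors KDR and FLT1 of endothelial cells, drives vessel growth and permeability and is produced in bone by hypertrophic chondrocytes and osteoblast-lineage cells. VEGF-B and placental growth factor bind FLT1, VEGF-C acts mainly on the lymphatic receptor FLT4, angiopoietin 2 modulates the receptor TEK, and adrenomedullin acts through CALCRL with a RAMP partner. CXCL12-abundant reticular (CAR) cells, the population gated here, surround marrow sinusoids. The question put to the data was whether CAR cells of perichondrial and of chondrocyte origin carried different amounts of these ligands' transcripts.

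The factors did not all move in the same direction. *Vegfa* and *Vegfb* were higher in Fgfr3CE-E12.5 cells, by 60.2-fold and 6.82-fold, and *Esm1*, *Angpt2* and *Angptl4* were higher in Dlx5CE-E12.5 cells, by 4.78-fold, 4.42-fold and 3.46-fold. *Vegfc*, *Pgf* and *Adm* did not pass the test. A gene was called when its Benjamini-Hochberg adjusted p in edgeR's quasi-likelihood test was under 0.05 and its log2 fold change, given throughout as Fgfr3CE-E12.5 over Dlx5CE-E12.5 cells, was above 1 in absolute value. Thus 2 of 8 factors were called higher in Fgfr3CE-E12.5 cells, where 16.4% of all tested genes were, and 3 of 8 were called higher in Dlx5CE-E12.5 cells, where 13.1% of all tested genes were. The libraries of the groups did not overlap for those 5 factors, as was the case for 68.9% of all tested genes. The median log2 fold change was -0.33 over the 8 factors and 0.01 over all tested genes.

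**Figure D1:**
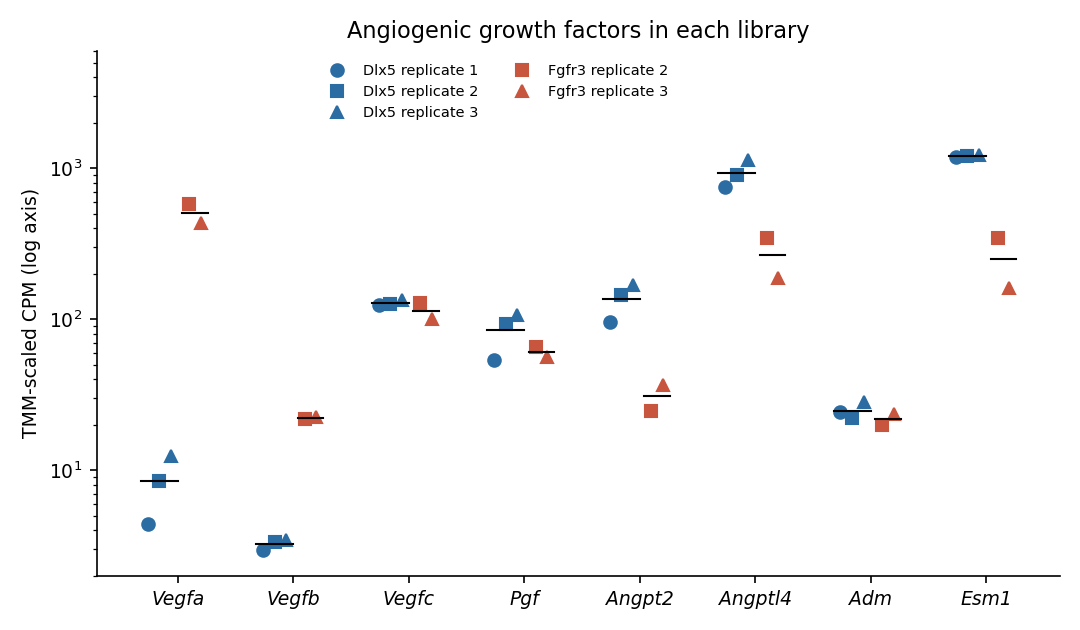
CPM, counts scaled to the library total with TMM factors (log axis), of the 8 factors in each of the 5 libraries, with Dlx5CE-E12.5 libraries in blue, Fgfr3CE-E12.5 libraries in red and a black line at each group mean. *Vegfa* spans 4.40 to 12.5 CPM in blue and 432 to 583 CPM in red, whereas the blue and red points of *Vegfc*, *Pgf* and *Adm* overlap.

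The libraries held between 22035650 and 32563758 counts in Dlx5CE-E12.5 cells and 56355203 and 58166285 counts in Fgfr3CE-E12.5 cells. Per the paper's methods, the Dlx5CE-E12.5 libraries were sequenced as long paired-end reads on one instrument and the Fgfr3CE-E12.5 libraries as short single-end reads on another, while the labels name 1 instrument for all, so sequencing and origin cannot be told apart. The Fgfr3CE-E12.5 libraries also held more transcripts of leukocytes and of cartilage. All 8 pan-leukocyte and all 7 neutrophil markers were called higher in them. Summed pan-leukocyte levels were 337 to 415 CPM in Dlx5CE-E12.5 cells and 1092 and 2291 CPM in Fgfr3CE-E12.5 replicates 2 and 3, with summed neutrophil levels of 2399 to 3001 CPM in Dlx5CE-E12.5 cells and of 6692 and 16465 CPM in Fgfr3CE-E12.5 replicates 2 and 3. The summed level of 6 chondrocyte markers was 120 to 131 CPM in Dlx5CE-E12.5 cells, nearly all of it *Sox9*, and 2918 and 410 CPM in Fgfr3CE-E12.5 replicates 2 and 3. *Col2a1* alone made up 2597 and 343 CPM of the latter. *Sox9* was at 121 ± 3.91 CPM in Dlx5CE-E12.5 cells and at 75.2 ± 30.5 CPM in Fgfr3CE-E12.5 cells (log2 fold change -0.69, not called). *Col9a1* and *Col10a1*, collagens of cartilage, had no count in any Dlx5CE-E12.5 library. Of 8 CAR cell markers, 5 (*Cxcl12*, *Kitl*, *Ebf3*, *Adipoq* and *Pdgfra*) were called lower in Fgfr3CE-E12.5 cells and *Foxc1* was called higher, with sums of 28899 to 30071 CPM in Dlx5CE-E12.5 cells and of 11808 and 7996 CPM in Fgfr3CE-E12.5 replicates 2 and 3. In such bulk samples, fewer cells of a type and less RNA per cell cannot be told apart.

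*Vegfa* (ENSMUSG00000023951) lies on chr17:46016993-46032369 of GRCm38, on the minus strand, and none of its exons overlaps another gene's. Its level was 4.40, 8.48 and 12.5 CPM in Dlx5CE-E12.5 replicates 1 to 3 and 583 and 432 CPM in Fgfr3CE-E12.5 replicates 2 and 3. These values rest on 135, 180 and 314 counts in the first group and on 35851 and 27407 counts in the second. The lowest Fgfr3CE-E12.5 library therefore stood far above the highest Dlx5CE-E12.5 library, and within Dlx5CE-E12.5 cells the libraries differed 2.84-fold. The log2 fold change was 5.91 (SE 0.43, edgeR adjusted p = 0.000103, n = 3 and 2), with a 95% interval of 29.8-fold to 122-fold. Of all 10093 tested genes, 14 had a log2 fold change at least as high, *Vegfa* included. Per kb of exon, *Vegfa* stood above 11.3% of tested genes in Dlx5CE-E12.5 cells and above 97.1% in Fgfr3CE-E12.5 cells.

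*Vegfb* (ENSMUSG00000024962), on chr19:6982473-6987651, minus strand, codes for a ligand associated with survival of vessels and with fatty acid uptake more than with sprouting. It was at 2.97, 3.34 and 3.46 CPM in Dlx5CE-E12.5 cells and at 21.8 and 22.6 CPM in Fgfr3CE-E12.5 cells. Both groups were tight, and they did not overlap. The log2 fold change was 2.77 (SE 0.22, edgeR adjusted p = 0.000141). *Vegfb* reached 10 CPM only in the 2 Fgfr3CE-E12.5 libraries and so entered the test through the group in which it was high. With either of these libraries left out it fell under the filter. With the filter lowered to 1 CPM, an alternative chosen after seeing the data, its log2 fold change was 2.75 without replicate 3 and 2.80 without replicate 2.

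The starts of *Vegfa* and *Vegfb* are shown because these factors moved in one direction, and that of *Esm1* because it moved in the other. Each run covers 250 bases before and 50 bases after a RefSeq start (GRCm38.p6), 5′ to 3′ on the gene's strand, and 6 of the 8 factors had an entry. Capitals mark GGGCGG, the letters of a GC box, on either strand. The letters ACGTG, the core of a hypoxia response element, were also searched on both strands and would be in capitals too. The 2 motifs can share no more than an end base.
Vegfa, chr17:46032328-46032627, minus strand: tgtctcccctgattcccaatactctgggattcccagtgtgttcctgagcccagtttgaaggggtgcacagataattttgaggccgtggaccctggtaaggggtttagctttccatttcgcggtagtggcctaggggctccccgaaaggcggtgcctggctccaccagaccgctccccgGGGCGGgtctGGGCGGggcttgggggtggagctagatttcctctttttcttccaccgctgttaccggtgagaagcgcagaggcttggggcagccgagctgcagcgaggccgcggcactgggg
Vegfb, chr19:6987602-6987901, minus strand: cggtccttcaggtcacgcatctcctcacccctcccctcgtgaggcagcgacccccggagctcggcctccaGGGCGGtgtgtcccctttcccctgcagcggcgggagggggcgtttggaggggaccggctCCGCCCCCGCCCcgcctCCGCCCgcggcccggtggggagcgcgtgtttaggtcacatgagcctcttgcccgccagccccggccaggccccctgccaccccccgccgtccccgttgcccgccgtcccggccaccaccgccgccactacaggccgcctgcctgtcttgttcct
Esm1, chr13:113209409-113209708, plus strand: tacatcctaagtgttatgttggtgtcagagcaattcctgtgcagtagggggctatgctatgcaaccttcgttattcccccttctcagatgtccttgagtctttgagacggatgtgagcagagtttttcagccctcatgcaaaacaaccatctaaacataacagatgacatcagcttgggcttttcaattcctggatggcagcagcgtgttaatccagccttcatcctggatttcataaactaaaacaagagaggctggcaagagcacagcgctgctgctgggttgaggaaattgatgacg
The *Vegfa* window held 2 GC boxes at 62.0% GC, the *Vegfb* window held 4 at 75.3% GC, and the *Esm1* window held none at 46.3% GC. Windows of the uncalled factors, not shown, held them too, with 2 for *Vegfc*, 1 for *Adm*, and 2 and 0 at the starts of *Pgf*. GGGCGG was found in 35.6% of 32817 promoter windows of this length. The window of a further RefSeq start of *Vegfa* within the gene, chr17:46025114-46025413, held 1 match to each motif and is not shown. ACGTG was found in none of the 3 windows shown and in 19.6% of all promoter windows, and its absence concerns these letters in these windows alone.

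*Vegfc* (ENSMUSG00000031520, chr8:54077606-54187096, plus strand) was at 124, 126 and 135 CPM in Dlx5CE-E12.5 cells and at 128 and 100 CPM in Fgfr3CE-E12.5 cells. The groups overlapped, the log2 fold change was -0.17 (SE 0.15, edgeR adjusted p = 0.389), and the 95% interval ran from 0.694-fold to 1.14-fold. *Pgf* (ENSMUSG00000004791, chr12:85166635-85177790, minus strand), coding for placental growth factor, was at 53.3, 92.2 and 107 CPM in Dlx5CE-E12.5 cells and at 65.9 and 55.8 CPM in Fgfr3CE-E12.5 cells. Dlx5CE-E12.5 replicate 1 was lower than both Fgfr3CE-E12.5 libraries, whereas the other Dlx5CE-E12.5 libraries were higher. The log2 fold change of *Pgf* was -0.47 (SE 0.29, edgeR adjusted p = 0.219), with a 95% interval of 0.450-fold to 1.16-fold. Without Dlx5CE-E12.5 replicate 1 its adjusted p was 0.0176 at a log2 fold change of -0.71, still under the fold threshold.

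The make-up of the VEGF ligand pool is given as a description. On the scale of CPM per kb of exon, on which genes can be compared, *Vegfc* made up 62.1% ± 7.42 and *Pgf* 33.3% ± 6.84 of the summed level of the 4 ligands in Dlx5CE-E12.5 cells (mean ± SD, n = 3), while *Vegfa* made up 2.23% ± 0.790. In Fgfr3CE-E12.5 cells *Vegfa* made up 59.1% ± 2.03, *Vegfc* 23.3% ± 0.00362 and *Pgf* 10.5% ± 0.627 (n = 2). The share of *Vegfb* was 2.39% ± 0.172 and 7.05% ± 1.40 in the respective groups. The summed level of the 4 ligands was 85.4 ± 12.6 CPM per kb in Dlx5CE-E12.5 cells and 200 ± 35.1 CPM per kb in Fgfr3CE-E12.5 cells. For the *Vegfa* share and for the sum the groups did not overlap. An exact permutation test on these values could not pass 0.05. The smallest two-sided p that this test, as computed here, can return for 3 against 2 libraries is 0.2.

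**Figure D2:**
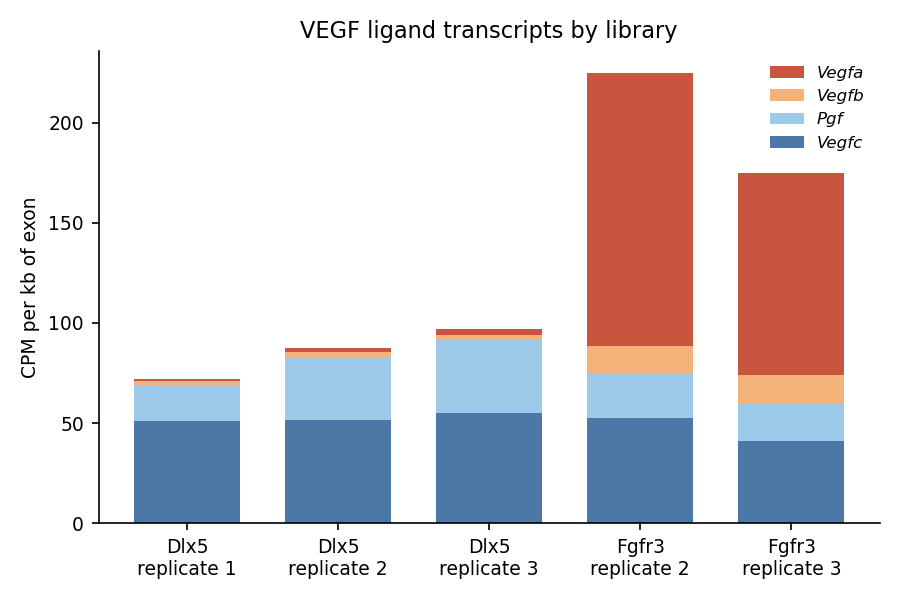
Level of the 4 VEGF ligands in each library, in CPM per kb of exon, stacked so that the bar height is their sum. The *Vegfc* segment, 40.8 to 55.0 CPM per kb, is of like height in all 5 libraries, while the *Vegfa* segment is at most 2.91 CPM per kb in Dlx5CE-E12.5 libraries and is 136 and 101 CPM per kb in Fgfr3CE-E12.5 replicates 2 and 3.

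*Esm1* (ENSMUSG00000042379, chr13:113209659-113218098, plus strand) codes for endocan, a secreted proteoglycan best known as a product of endothelial tip cells. It was at 1179, 1208 and 1228 CPM in Dlx5CE-E12.5 cells and at 343 and 161 CPM in Fgfr3CE-E12.5 cells. The Dlx5CE-E12.5 libraries agreed to within 1.04-fold, the Fgfr3CE-E12.5 libraries differed 2.13-fold, and the groups did not overlap. The log2 fold change was -2.26 (SE 0.33, edgeR adjusted p = 0.00160). Per kb of exon, *Esm1* was the most abundant of the 8 factors in both groups, at 575 ± 11.7 CPM per kb in Dlx5CE-E12.5 cells and at 120 ± 61.3 CPM per kb in Fgfr3CE-E12.5 cells, where *Vegfa* at 118 ± 24.8 CPM per kb was within its spread. In Dlx5CE-E12.5 cells 65 of 10088 tested genes were above it on that scale.

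*Angptl4* (ENSMUSG00000002289, chr17:33773750-33781830, minus strand) codes for angiopoietin-like 4, an inhibitor of lipoprotein lipase that is also induced by hypoxia. It was at 748, 895 and 1135 CPM in Dlx5CE-E12.5 cells and at 346 and 188 CPM in Fgfr3CE-E12.5 cells, without overlap. The log2 fold change was -1.79 (SE 0.31, edgeR adjusted p = 0.00351). *Angpt2* (ENSMUSG00000031465, chr8:18690263-18741562, minus strand) was at 95.2, 144 and 168 CPM in Dlx5CE-E12.5 cells and at 24.7 and 36.8 CPM in Fgfr3CE-E12.5 cells. These groups did not overlap either, and the log2 fold change was -2.14 (SE 0.30, edgeR adjusted p = 0.00135). *Angptl4* and *Esm1* were higher in Fgfr3CE-E12.5 replicate 2 than in replicate 3, whereas *Angpt2* was lower in it.

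*Adm* (ENSMUSG00000030790, chr7:110627661-110629820, plus strand), coding for the vasodilator and lymphatic growth factor adrenomedullin, was at 24.1, 22.0 and 28.3 CPM in Dlx5CE-E12.5 cells and at 20.0 and 23.4 CPM in Fgfr3CE-E12.5 cells. The groups overlapped, and the log2 fold change was -0.19 (SE 0.19, edgeR adjusted p = 0.429), with a 95% interval of 0.641-fold to 1.19-fold. In Dlx5CE-E12.5 cells the order per kb of exon ran from *Esm1* through *Angptl4*, *Vegfc*, *Angpt2*, *Pgf* and *Adm* to *Vegfb* and *Vegfa*, where *Angpt2* and *Pgf*, at 36.8 ± 10.1 and 29.0 ± 9.58 CPM per kb, were within each other's spread, as were *Vegfb* and *Vegfa*, at 2.03 ± 0.160 and 1.97 ± 0.943 CPM per kb. In Fgfr3CE-E12.5 cells it ran from *Esm1* and *Vegfa* through *Angptl4* (75.5 ± 31.5), *Vegfc* (46.6 ± 8.18), *Pgf* (21.0 ± 2.45), *Vegfb* (13.8 ± 0.324) and *Adm* (13.4 ± 1.49) to *Angpt2* (8.34 ± 2.32 CPM per kb), where the ranges of mean ± SD overlapped between *Esm1* and *Vegfa*, *Vegfa* and *Angptl4*, *Angptl4* and *Vegfc*, and *Vegfb* and *Adm*.

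**Figure D3:**
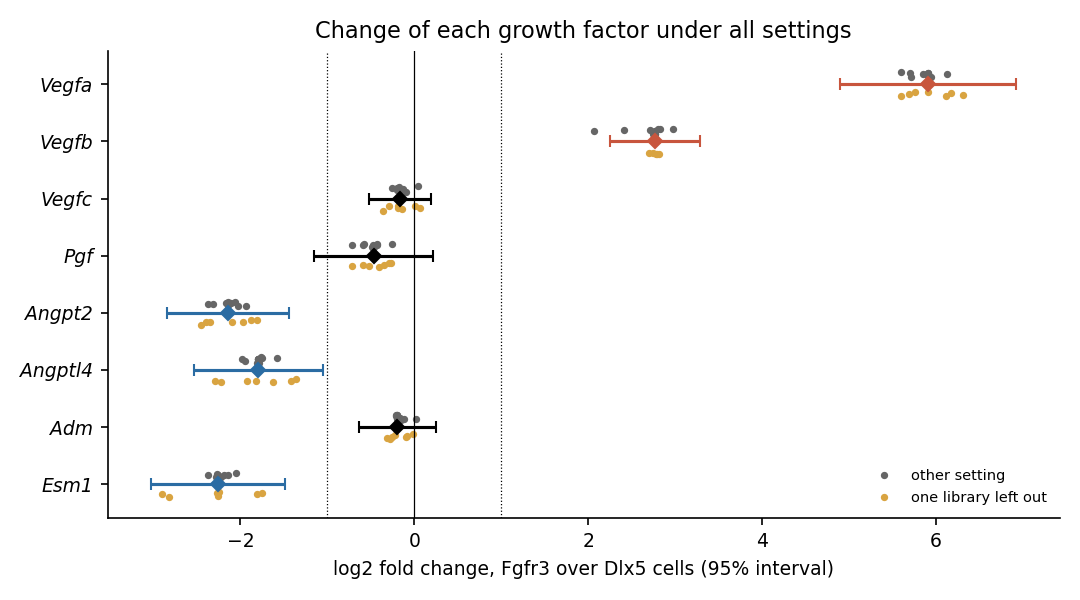
Log2 fold change of each factor, Fgfr3CE-E12.5 over Dlx5CE-E12.5 cells, with its 95% interval (diamonds and bars, red where called higher in Fgfr3CE-E12.5 cells, blue where called higher in Dlx5CE-E12.5 cells, black where not called). Grey points are other settings, yellow points leave out a library, and dotted lines mark the fold threshold. The coloured diamonds keep their side of zero at every point, with *Vegfb* ranging from 2.07 to 2.98, while points of *Vegfc* and *Adm* fall on both sides of zero.

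Several measurements moved with these factors. Genes whose transcripts contain a very GC-rich stretch tended to be higher in Fgfr3CE-E12.5 libraries. When tested genes were divided into deciles by the GC content of the GC-richest 300 bases of their longest coding transcript, the median log2 fold change was between -0.12 and 0.03 in the lower 8 deciles, 0.18 in the ninth and 0.85 in the top decile. In the top decile 45.3% of genes were called higher in Fgfr3CE-E12.5 cells and 8.08% higher in Dlx5CE-E12.5 cells. *Vegfa* with 74.0% GC lay in the ninth decile and *Vegfb* with 79.3% GC in the top decile, whereas *Esm1* and *Angpt2*, with 60.7% and 56.3% GC, lay in the third and the second. Of 76 genes with a log2 fold change above 4 and a known transcript, 51 were in the upper 2 deciles, *Vegfa* among them. After removal of the trend on this GC measure, an alternative chosen after seeing the data, the log2 fold change was 5.70 for *Vegfa*, 2.07 for *Vegfb*, -2.15 for *Esm1*, -2.02 for *Angpt2* and -1.75 for *Angptl4*, all still called. *Vegfc*, with 71.3% GC and in the eighth decile, was not called with or without the trend.

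**Figure D4:**
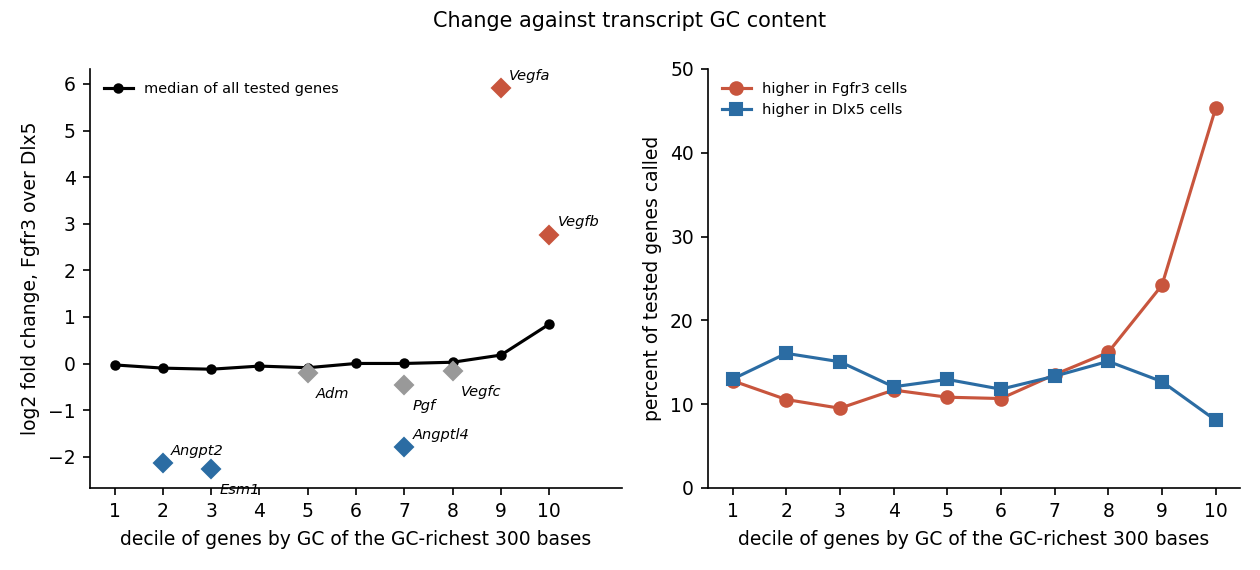
Left, median log2 fold change of the tested genes in deciles by the GC content of their GC-richest 300 bases (black line) with the 8 factors as diamonds (red, called higher in Fgfr3CE-E12.5 cells, blue, called higher in Dlx5CE-E12.5 cells, grey, not called). Right, percent of genes called in each direction in each decile, where calls toward Fgfr3CE-E12.5 cells climb to 45.3% in the top decile. *Vegfa* and *Vegfb* lie in the upper 2 deciles and above the line, which gives medians and not the spread of the genes.

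Chondrocyte transcripts and *Vegfa* were both higher in Fgfr3CE-E12.5 cells. The summed chondrocyte markers were 7.11-fold higher in replicate 2 than in replicate 3, and *Vegfa* was 1.35-fold higher. *Vegfb* in replicate 2 was 0.967 times its level in replicate 3. Without replicate 2, the library with more chondrocyte transcripts, the log2 fold change of *Vegfa* was 5.76. Replicate 3, which remained, held *Col2a1* at 343 CPM, against 0.756 to 7.01 CPM in Dlx5CE-E12.5 cells. The summed neutrophil markers went the other way, with a ratio of 0.406 between replicates 2 and 3, as did the pan-leukocyte markers with 0.476 and 5 macrophage markers, 4 of them called higher in Fgfr3CE-E12.5 cells, with 0.707. Of 6 osteoblast markers 4 were called higher in Fgfr3CE-E12.5 cells, among them *Alpl* (1.61) and *Sp7* (1.03), with sums of 3726 to 5238 CPM in Dlx5CE-E12.5 cells and of 7217 and 9676 CPM in Fgfr3CE-E12.5 cells. Megakaryocyte markers were low, with sums of 5.19 to 6.69 CPM in Dlx5CE-E12.5 cells and of 55.2 and 15.6 CPM in Fgfr3CE-E12.5 replicates 2 and 3. The part of these cells in the *Vegfa* and *Vegfb* differences was not tested.

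Endothelial cells, the best known source of *Esm1* and *Angpt2*, were read from 11 markers. Their summed level was 41.7 to 64.2 CPM in Dlx5CE-E12.5 cells and 49.9 and 71.8 CPM in Fgfr3CE-E12.5 cells, none was at 0, and the highest single value was 20.7 CPM, for *Plvap*. Of the 11, *Cdh5* alone was called, at the filter of 1 CPM, and was at 7.44, 3.86 and 1.63 CPM in Dlx5CE-E12.5 replicates 1 to 3 and at 1.07 and 1.10 CPM in Fgfr3CE-E12.5 cells. Of 5 mural cell markers, *Rgs5* was highest in Dlx5CE-E12.5 replicate 1, at 228 CPM against 63.0 and 55.8 CPM in the other Dlx5CE-E12.5 libraries, and *Angpt2* was lowest in that library. *Acta2* was called higher in Fgfr3CE-E12.5 cells. *Myh11* was called lower in them at the filter of 1 CPM, which it passed through Dlx5CE-E12.5 libraries alone. The other 3 mural markers were not called. The part of endothelial and mural cells in the *Esm1* and *Angpt2* differences was not tested. Of 4 erythroid markers, *Hba-a1* was called higher in Dlx5CE-E12.5 cells. The GC-richest 300 bases of *Foxc1* hold 81.7% GC, which places it in the top GC decile. The 8 CAR cell markers had log2 fold changes from -2.80 for *Kitl* to 2.82 for *Foxc1*, with a median of -1.71. Of these 8, 7 were higher in Fgfr3CE-E12.5 replicate 2 than in replicate 3. So were 5 of the 8 factors, *Esm1*, *Angptl4*, *Vegfa*, *Vegfc* and *Pgf*. The same held for 6 of 6 chondrocyte and 5 of 5 mural markers, but for 2 of 6 osteoblast and 0 of 8 pan-leukocyte markers. The share of all tested genes higher in replicate 2 is not given here. The part of CAR cell content in the differences of the called factors was not tested.

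The partners of these ligands were read from lists of 60 genes, also chosen with earlier results of these data known. Of the 36 that passed the same filter, 4 (11.1%) were called higher in Fgfr3CE-E12.5 cells and 12 (33.3%) higher in Dlx5CE-E12.5 cells, beside the 16.4% and 13.1% of all tested genes, and their median log2 fold change was -0.55. A further 20 were fitted with the 13235 genes of at least 1 CPM in 2 libraries, where 16.6% of genes were called higher in Fgfr3CE-E12.5 cells and 12.9% higher in Dlx5CE-E12.5 cells. Of these 20 low genes, 4 and 2 were called in the respective directions, and 4 genes were not tested. Among the called low genes, *Cnmd*, *Ackr3* and *Hif3a* passed the filter only through the group in which they were high.

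The receptors for VEGF ligands were scarce. *Kdr* was at 3.70 to 7.44 CPM in Dlx5CE-E12.5 cells and at 2.27 and 3.16 CPM in Fgfr3CE-E12.5 cells, and neither it nor *Flt1* or *Flt4* passed the test. Both co-receptors were abundant and called higher in Dlx5CE-E12.5 cells. *Nrp1* was at 798, 741 and 705 CPM there and at 460 and 272 CPM in Fgfr3CE-E12.5 cells (log2 fold change -1.03, edgeR adjusted p = 0.0114), and *Nrp2* was at 275, 313 and 303 CPM and at 58.0 and 73.2 CPM (-2.18, edgeR adjusted p = 0.000132). The neuropilins bind VEGF ligands as well as class 3 semaphorins.

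Of the angiopoietin ligands, *Angpt1*, which activates TEK, was also called higher in Dlx5CE-E12.5 cells, at 340, 357 and 303 CPM against 141 and 60.8 CPM (-1.72, edgeR adjusted p = 0.00626). *Angpt4* was at 143 ± 25.2 and 185 ± 25.7 CPM in the respective groups and was not called, and neither *Tek* nor *Tie1* was called. *Angpt1* and *Angpt2* were both lower in Fgfr3CE-E12.5 cells. Per kb of exon, *Angpt2* was at 0.394, 0.571 and 0.784 times *Angpt1* in Dlx5CE-E12.5 replicates 1 to 3. In Fgfr3CE-E12.5 replicates 2 and 3 it was at 0.247 and 0.855 times *Angpt1*, on both sides of the Dlx5CE-E12.5 range. *Angpt1* was 2.33-fold higher in replicate 2 than in replicate 3, whereas *Angpt2* in replicate 2 was 0.671 times its level in replicate 3. In the angiopoietin-like family both genes that passed the filter, *Angptl1* (-2.18) and *Angptl2* (-1.71), were called higher in Dlx5CE-E12.5 cells, as *Angptl4* was, *Angptl1* having reached 10 CPM in Dlx5CE-E12.5 libraries only.

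The adrenomedullin receptor subunits differed although the ligand was not called. *Calcrl*, the receptor (-1.60, edgeR adjusted p = 0.00648), and *Ramp2*, the partner that makes it an adrenomedullin receptor (-1.45, edgeR adjusted p = 0.0165), were called higher in Dlx5CE-E12.5 cells. *Calcrl* was at 31.8, 22.8 and 19.7 CPM there and at 6.06 and 10.3 CPM in Fgfr3CE-E12.5 cells. *Ramp1*, whose pairing with CALCRL binds the peptide CGRP, was called in the other direction (1.98, edgeR adjusted p = 0.00450), at 4.26 to 6.88 CPM against 15.2 and 31.6 CPM. *Ramp1* reached 10 CPM only in Fgfr3CE-E12.5 libraries and *Ramp2* only in Dlx5CE-E12.5 libraries, so each entered the test through the group in which it was high. *Ackr3*, a scavenger of CXCL12 and adrenomedullin, was called higher in Fgfr3CE-E12.5 cells from low levels (2.47 at the filter of 1 CPM). It had 16, 6 and 8 counts in Dlx5CE-E12.5 libraries and 189 and 78 in Fgfr3CE-E12.5 libraries. *Ackr3* thus passed that filter only through the group in which it was high. *Ramp3* was not called.

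Among 11 other angiogenic ligands, *Ccn2*, a matricellular factor also known as CTGF, was called higher in Fgfr3CE-E12.5 cells, at 238, 383 and 525 CPM in Dlx5CE-E12.5 cells and at 2064 and 1732 CPM in Fgfr3CE-E12.5 cells (2.31, edgeR adjusted p = 0.00127). *Ptn*, coding for pleiotrophin (-1.55), and the low gene *Fgf1* (-1.39) were called higher in Dlx5CE-E12.5 cells. *Mdk*, coding for midkine, was at 250 ± 6.05 and 128 ± 4.52 CPM, a log2 fold change of -0.97 just under the fold threshold, and the abundant *Ccn1* and *Slit3* were not called. Of 9 angiogenesis inhibitors, *Thbs2* (-1.35) and *Adamts1* (-1.95) were called higher in Dlx5CE-E12.5 cells, and *Col18a1*, the precursor of endostatin (2.23), was called higher in Fgfr3CE-E12.5 cells. *Cnmd*, coding for chondromodulin, was called higher in Fgfr3CE-E12.5 cells at the filter of 1 CPM, which it passed through these libraries alone. *Cnmd* had 0, 2 and 0 counts in Dlx5CE-E12.5 cells and 6109 and 575 counts in Fgfr3CE-E12.5 replicates 2 and 3, which follows the order of the chondrocyte markers. *Thbs1*, *Serpinf1* and *Vash2* were not called.

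**Figure D5:**
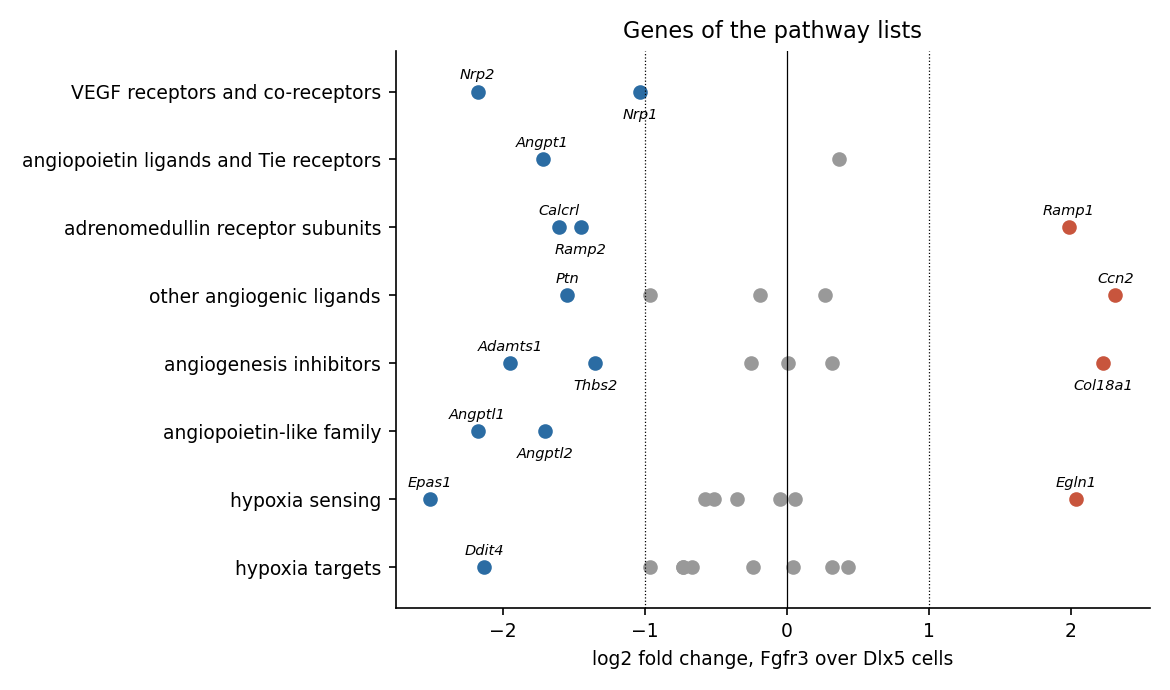
Log2 fold change, Fgfr3CE-E12.5 over Dlx5CE-E12.5 cells, of the 36 list genes that passed the filter, one row per list (blue, called higher in Dlx5CE-E12.5 cells, red, called higher in Fgfr3CE-E12.5 cells, grey, not called, dotted lines at the fold threshold). The 12 blue genes stand to the left, among them both neuropilins, and 4 red genes to the right (*Ramp1*, *Ccn2*, *Col18a1* and *Egln1*).

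*Vegfa*, *Angptl4* and *Adm* are textbook targets of hypoxia-inducible factors, so other genes of that response were read beside them. Their log2 fold changes were 5.91, -1.79 and -0.19, the last not called. Of 9 further hypoxia targets that passed the filter none was called higher in Fgfr3CE-E12.5 cells and *Ddit4* was called higher in Dlx5CE-E12.5 cells (-2.13). Of all tested genes, 16.4% and 13.1% were called in the respective directions. *Pgk1* was at 79.9 ± 2.25 and 82.3 ± 1.05 CPM (0.04) and *Ldha* at 547 ± 44.7 and 683 ± 18.7 CPM (0.32), neither past the test, while *Slc2a1* (-0.73), *P4ha1* (-0.96) and *Higd1a* (-0.73) had adjusted p-values under 0.05 but not the fold. The low gene *Ankrd37* was called higher in Fgfr3CE-E12.5 cells (1.58), and the low gene *Car9* (1.82) did not pass the test. Of the sensing genes, *Epas1*, coding for HIF-2α, was at 788, 423 and 420 CPM in Dlx5CE-E12.5 cells and at 110 and 80.7 CPM in Fgfr3CE-E12.5 cells (-2.51, edgeR adjusted p = 0.00129), whereas *Hif1a*, coding for HIF-1α, was at 227 ± 10.4 and 236 ± 70.5 CPM and was not called. The prolyl hydroxylase gene *Egln1*, whose richest 300 bases hold 87.3% GC, was called higher in Fgfr3CE-E12.5 cells (2.03), as was the low gene *Egln3* (1.43). The low gene *Hif3a* was called higher in Dlx5CE-E12.5 cells (-3.10), through which alone it passed the filter of 1 CPM. Its counts were 38, 40 and 42 in these libraries and 21 and 2 in Fgfr3CE-E12.5 replicates 2 and 3.

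The tested genes whose profile over the 5 libraries was most like that of each called factor, by the Euclidean distance between centred log2 CPM, were *Jdp2* and *Khdrbs3* for *Vegfa* (distances 0.795 and 0.813), *Habp4* and *Nploc4* for *Vegfb* (0.133 and 0.154), *Fam43a* for *Angpt2* (0.246), *Tnfaip3* and *Nup98* for *Angptl4* (0.167 and 0.194), and *Prkaa2* and *Vgll4* for *Esm1* (0.151 and 0.239). The distances for *Vegfa* were the largest of these.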

How the data were processed

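Raw read counts per gene, which the authors deposited without normalization, were used for 3 Dlx5CE-E12.5 and 2 Fgfr3CE-E12.5 libraries, grouped by the genotype in the labels. The submitters' processing notes name mm10, TopHat2 2.0.13, Bowtie2 2.2.1 and HTSeq, and the strand setting is not given in the sources used here. The deposited depth-normalized and rlog tables were not used. GENCODE M21 (GRCm38) gave symbols and coordinates for 29996 of 30046 features. Replicate numbers shared by the groups refer to different pools, and every pair of libraries differed by more than sampling noise. The paper describes independent samples pooled from littermates, and p-values measure the spread between these samples. How the mice were divided among the samples is not stated there. Whether the p-values cover the spread between animals is therefore not known.

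Protein-coding genes and reporters that reached 10 CPM in 2 or more libraries entered edgeR 4.0.16 under R 4.3.3 (TMM, quasi-likelihood test, no covariate). The SE was derived from the F statistic, and 95% intervals used the fit's degrees of freedom. CPM were TMM-scaled, and CPM per kb were divided by the union of exons. List genes under the filter were fitted at 1 CPM. Reads carried no molecular identifiers, so 3 counts, equal to 0.0516 to 0.136 CPM, limit detection by counting error only. The script was tested on simulated data.

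The factors and lists were chosen with earlier results of these data known. The text names all 8 factors, list genes past the thresholds or among the most abundant, and for each called factor the 2 genes with the nearest profile, of which 1 for *Angpt2* is not reported here. *Cdh5*, *Plvap* and other markers are named where a result touches them. Alternatives were DESeq2 size factors or library size alone, other filters, all features, edgeR's exact test, DESeq2 1.42.0, other thresholds, glmTreat, a replicate block, removal of GC and length trends, and each library left out. Removal of the trend on the GC-richest 300 bases, and libraries left out at 1 CPM, were added after seeing the data. Figures were drawn with matplotlib 3.10.9.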

Additional observations from a re-analysis of the deposited data

How the results depend on the processing

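The number of factors called higher in Dlx5CE-E12.5 cells was 3 under every alternative run, and the number called higher in Fgfr3CE-E12.5 cells was 2, except that it was 1 to 2 with a library left out, because *Vegfb* fell under the filter of 10 CPM without either Fgfr3CE-E12.5 library. The 5 called factors kept their direction and call in all 88 alternative values. Leaving out libraries gave log2 fold changes of 5.59 to 6.31 for *Vegfa*, 2.70 to 2.81 for *Vegfb*, -2.90 to -1.75 for *Esm1*, -2.46 to -1.81 for *Angpt2* and -2.29 to -1.36 for *Angptl4*. The uncalled *Vegfc* turned to 0.040 and *Adm* to 0.017 with library size alone, a scaling that moved the median of all genes from 0.01 to 0.22 and the calls over all genes from 1655 and 1320 to 1988 and 1010. With libraries left out *Vegfc* ranged from -0.29 to 0.060, its value without Fgfr3CE-E12.5 replicate 3, and at the lower filter from -0.36 to 0.0029. With the replicate number as a block, the log2 fold change of *Pgf* was -0.71 (edgeR adjusted p = 0.0269) and that of *Vegfa* 5.60, and no call changed. The shared numbers refer to different pools, and deviations of same-numbered libraries correlated at 0.135 and -0.0515. Over all genes, 1013 and 659 passed glmTreat, 2520 and 2365 passed the adjusted p alone, and 997 were called higher in Fgfr3CE-E12.5 cells without its replicate 3. With 3 and 2 libraries and 10226 to 36146 counts for *Esm1*, the spread between libraries rather than depth set the precision of *Esm1*. The lowest counts of a factor were 71 to 91, for *Vegfb* in Dlx5CE-E12.5 cells.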
